A study of Xenopus laevis with 6 samples.

Results

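The water channel genes aqp1 and aqp3 were followed in whole Xenopus laevis embryos raised in 0.75X MMR or in 0.1X MMR. This frog is allotetraploid, and many of its genes exist as a pair of homeologs, an L copy and an S copy on separate subgenomes. The rule that chose the genes took the rows named aqp1 and aqp3 with either suffix, which gave 4 genes (aqp1.L, aqp1.S, aqp3.L and aqp3.S) out of 42638 genes with a row in the counts. Wild-type embryos were fertilized in vitro, reared in dilute MMR (Marc's Modified Ringer's, a buffered salt solution) of 0.1X strength and kept at 14 °C. The 0.75X MMR embryos were moved to this saltier medium at stage 9, while the 0.1X MMR embryos stayed in the dilute medium, and both were taken after 7 days, at stage 35. Each medium had 3 samples, each of them a pool of 10 whole embryos, so that differences between single embryos and between tissues are not visible. After removal of ribosomal RNA, total RNA was sequenced with single-end reads of 75 nucleotides. The question for these genes was whether their levels, and the balance between their L and S copies, differ between the media.

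Aquaporins are membrane channels that let water follow osmotic gradients across cells. Aquaporin 1 is selective for water, and in mammals it is abundant in red blood cells, in capillary endothelium and in water-reabsorbing kidney tubules. Aquaporin 3 is an aquaglyceroporin, which passes glycerol as well as water, and in mammals it sits in the basolateral membrane of epithelia and in the epidermis. A freshwater embryo takes up water by osmosis, and a saltier medium makes the gradient across its skin smaller.

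In the v10.1 genome assembly, aqp1.L lies on chromosome 6L from 10006146 to 10018177 and aqp1.S on chromosome 6S from 6545947 to 6556643, spans of 12.0 and 10.7 kb including introns. The aqp3 copies have longer annotated spans, 61.7 kb for aqp3.L (chromosome 1L, 228561354 to 228623084) and 21.2 kb for aqp3.S (chromosome 1S, 198379016 to 198400226). All 4 are protein-coding, and no other annotated gene overlaps them (0 overlapping entries for each). On both subgenomes the next gene at lower coordinates is the same one: adcyap1r1, a neuropeptide receptor gene, beside aqp1, and aqp7, which encodes another aquaglyceroporin, beside aqp3. The gap to aqp7 is 25.9 kb on 1L and 31.0 kb on 1S. Yet aqp7 was hardly counted, with at most 2 counts of aqp7.L and 1 count of aqp7.S in any sample.

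All 4 genes had counts in every sample and passed the filter on low counts, which was a level over 0.6 CPM (the count scaled to a common library size) in at least 3 samples and left 28075 genes. Samples held between 5024957 and 7045215 counts in all. A gene with 3 counts, taken as the floor of detection, would stand at 0.426 to 0.597 CPM, and this floor covers counting error only. CPM values below are normalized by the trimmed mean of M-values (TMM) and are not divided by transcript length, so they compare media and samples for 1 gene and do not rank different genes. Where the text gives a mean, the error is the SD over the 3 samples.

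The most heavily counted of the genes, aqp1.L, was lower in all samples of 0.75X MMR than in any sample of 0.1X MMR. It stood at 37.6, 50.8 and 48.4 CPM in 0.75X MMR, against 61.2, 52.7 and 53.7 CPM in 0.1X MMR. The groups did not overlap, but the gap between them was narrow, and replicate 1 in each medium lay farthest out. The means were 45.6 ± 7.02 CPM in 0.75X MMR and 55.9 ± 4.66 CPM in 0.1X MMR (SD, n = 3 each). The log2 fold change was -0.30 (standard error 0.11, 95% interval -0.54 to -0.055), with an unadjusted p of 0.0200 by the quasi-likelihood test of edgeR and an adjusted p of 0.9997 after correction over all tested genes by Benjamini and Hochberg's method. Its place by p among all tested genes was 502. Without replicate 1 of 0.75X MMR the log2 fold change was -0.18, and in the same fit the unadjusted p was 0.132. The difference did not pass the threshold for the adjusted p. With all samples the interval ran from 0.687 to 0.963 times the level in 0.1X MMR, but it is not adjusted for the number of genes tested.

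The S copy, aqp1.S, lay on the other side. Its level was 5.80, 3.90 and 5.24 CPM in 0.75X MMR, against 3.43, 3.25 and 4.23 CPM in 0.1X MMR, and replicate 2 of 0.75X MMR fell within the range of 0.1X MMR. The means were 4.98 ± 0.972 CPM in 0.75X MMR and 3.64 ± 0.519 CPM in 0.1X MMR (SD, n = 3 each), a log2 fold change of 0.47 (standard error 0.25, 95% interval -0.061 to 1.01). By edgeR's quasi-likelihood test the unadjusted p was 0.0782 and the adjusted p 0.9997. These levels rest on few counts, between 19.9 and 35.2 per sample.

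For aqp3.L the samples of both media were mixed. It stood at 9.11, 9.58 and 6.55 CPM in 0.75X MMR, against 8.57, 4.88 and 8.25 CPM in 0.1X MMR, where replicate 2 was the lowest of all. The means were 8.41 ± 1.63 CPM in 0.75X MMR and 7.23 ± 2.04 CPM in 0.1X MMR (SD, n = 3 each). The log2 fold change was 0.22 (standard error 0.23, 95% interval -0.28 to 0.71, edgeR's adjusted p = 0.9997), and without replicate 2 of 0.1X MMR it was -0.0083.

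Of the 4 genes, aqp3.S had the narrowest range relative to its lowest sample. Its samples stood at 3.48, 4.26 and 4.91 CPM in 0.75X MMR, against 4.43, 3.58 and 4.43 CPM in 0.1X MMR, and the highest was 1.41 times the lowest. The same ratio over all 6 samples was 1.63 for aqp1.L, 1.78 for aqp1.S and 1.96 for aqp3.L. The means of aqp3.S were 4.22 ± 0.716 CPM in 0.75X MMR and 4.14 ± 0.489 CPM in 0.1X MMR (SD, n = 3 each), and both media had a mean of 25 counts. Its log2 fold change was 0.026 (standard error 0.24, 95% interval -0.50 to 0.55, edgeR's adjusted p = 0.9997). The interval is wide enough to hold a level in 0.75X MMR from 0.709 to 1.46 times that in 0.1X MMR.

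**Figure D1:**
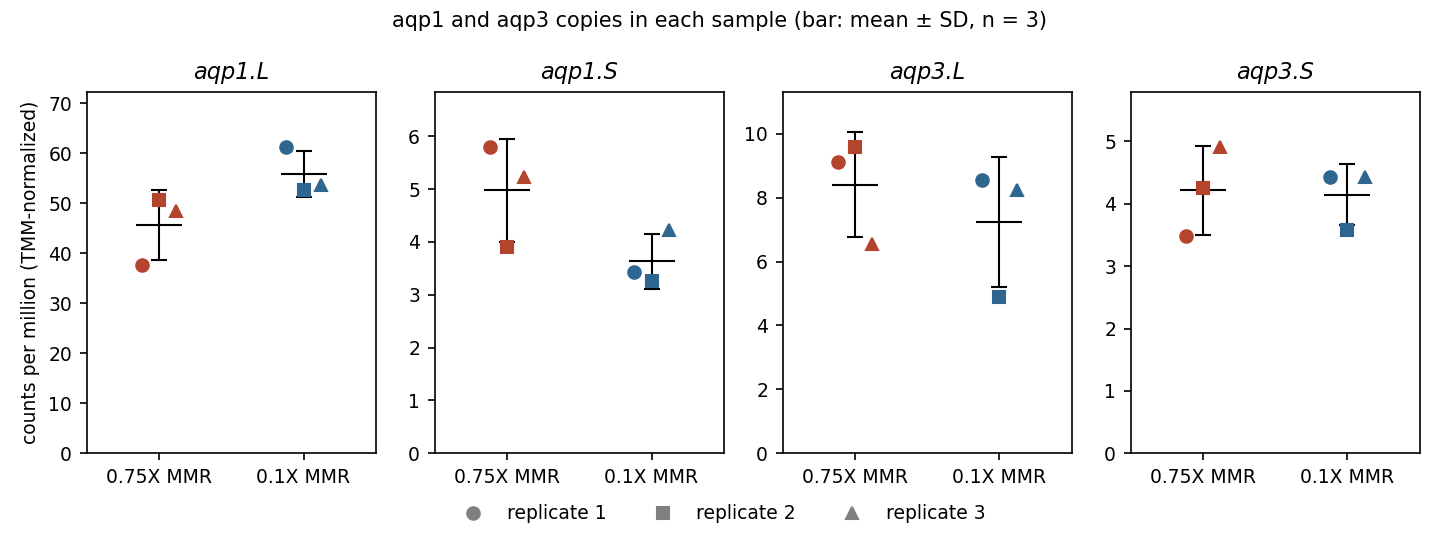
TMM-normalized CPM (vertical axes from 0, 1 scale per gene) of aqp1.L, aqp1.S, aqp3.L and aqp3.S in the samples of 0.75X MMR and 0.1X MMR; symbols stand for replicates, and bars for the mean ± SD (n = 3). The aqp1.L samples of 0.75X MMR, at 37.6 to 50.8, all lie below those of 0.1X MMR, at 52.7 to 61.2, while the samples of the other genes overlap between the media.

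At an adjusted p under 0.05 by edgeR, 0 of the 4 genes passed, where 0.0178% of all tested genes did (0.00712% higher and 0.0107% lower in 0.75X MMR). By limma-voom 0 of them passed too. DESeq2 also called 0, but it gave an adjusted p for aqp1.L only. At an unadjusted p under 0.05 by edgeR there was 1 of the 4, aqp1.L, against 4.39% of all tested genes. The samples of the media did not overlap in 1 of the 4, again aqp1.L, against 9.77% of all tested genes. Exact two-sided permutation tests over samples gave p = 0.1 for aqp1.L, the smallest value that 3 samples against 3 can reach, 0.2 for aqp1.S, 0.5 for aqp3.L and 1 for aqp3.S. The median log2 fold change over the 4 genes was 0.12, and over all tested genes it was -0.0014. The labels do not say that the pools of a medium came from separate parents. For all its experiments the study states at least 3 independent biological replicates from independent batches, but it does not name the parents of these pools. The p-values measure the spread between these pools only.

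**Figure D2:**
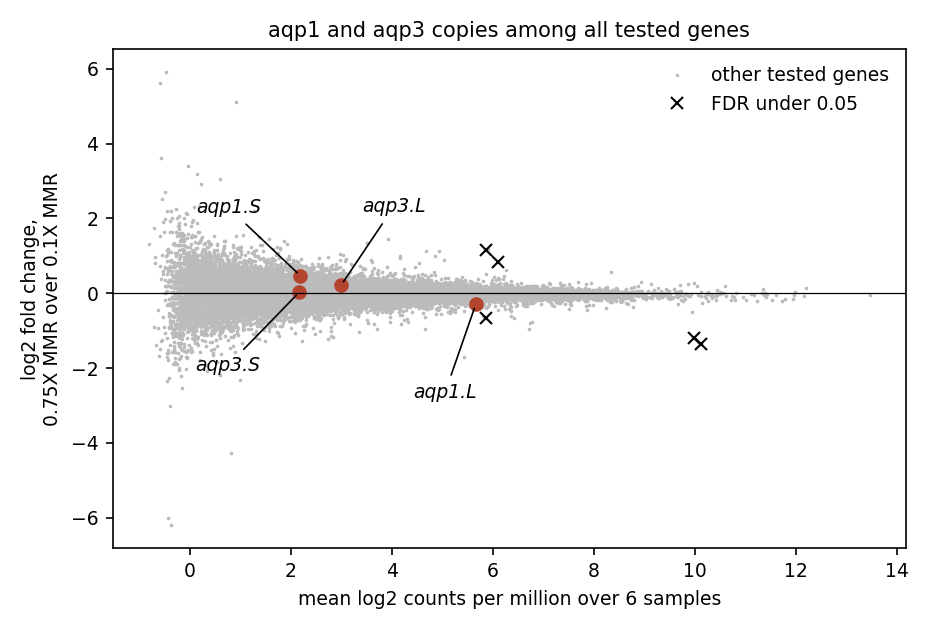
Log2 fold change of 0.75X MMR over 0.1X MMR against the mean log2 CPM over 6 samples, for all 28075 tested genes (grey points). The 4 aquaporin genes (red) lie within the cloud of other genes, with aqp1.L at -0.30, and crosses mark the 5 genes with an adjusted p under 0.05.

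Where reads match both copies of a gene, RSEM, the program that estimated the counts, divides them between the copies, and the result need not be whole. For aqp1 no sample had a whole count in either copy, with 429.09 for L and 23.91 for S in replicate 1 of 0.1X MMR as an example. Added up, the L and S counts of aqp1 were whole in each of the 6 samples within a tolerance of 0.011, at 262, 308 and 328 counts in 0.75X MMR and 453, 344 and 288 counts in 0.1X MMR. The sums left no remainder, which is what a division between aqp1.L and aqp1.S alone would give. The counts of aqp3.L and aqp3.S were whole in every sample and show no sign of such a division. Neither pattern is rare. Of 7007 L and S pairs with at least 100 counts in sum, 29.4% were divided as aqp1 was and 25.1% were whole as aqp3 was. How many aqp1 reads were divided cannot be read from the counts, so the separate levels of aqp1.L and aqp1.S are less certain than their sum.

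The sum does not depend on that division. The aqp1 pair stood at 43.4, 54.6 and 53.6 CPM in 0.75X MMR, against 64.7, 55.9 and 58.0 CPM in 0.1X MMR. All samples of 0.75X MMR again lay below those of 0.1X MMR, with 54.6 and 55.9 CPM as the nearest values on either side. Since 92.3% of all aqp1 counts were on the L copy, the sum is largely the same measure as aqp1.L. The log2 fold change of the sum was -0.24 (standard error 0.10, 95% interval -0.46 to -0.016), with an unadjusted p of 0.0377 and an adjusted p of 0.9998 by edgeR after every L and S pair had been added up. Of the 21241 entries tested in this way 0.00942% had an adjusted p under 0.05, 4.26% had an unadjusted p under 0.05, and 9.67% had samples that did not overlap. Without replicate 1 of 0.75X MMR the log2 fold change of the sum was -0.14.

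The aqp3 pair stood at 12.6, 13.8 and 11.4 CPM in 0.75X MMR, against 13.0, 8.45 and 12.7 CPM in 0.1X MMR. The media overlapped, and replicate 2 of 0.1X MMR alone was low. Its log2 fold change was 0.15 (standard error 0.18, 95% interval -0.24 to 0.54, edgeR's adjusted p = 0.9998). The ratio of aqp1 to aqp3 counts within a sample, which library size cannot move and which was looked at only after the values were known, was 3.45, 3.95 and 4.69 in 0.75X MMR, against 4.98, 6.62 and 4.57 in 0.1X MMR. The media overlapped in this ratio by 1 sample on each side, and the log2 difference was -0.41. An exact two-sided permutation test gave p = 0.2 (n = 3 each), where 0.1 is the smallest value it can reach.

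Of the counts of aqp1, nearly all were on the L copy. The L share was 86.6%, 93.0% and 90.3% in 0.75X MMR, against 94.7%, 94.2% and 92.8% in 0.1X MMR. Replicate 1 of 0.75X MMR was the lowest, with an exact binomial 95% interval of 81.9% to 90.5% that covers counting error only, and neither the spread between pools nor the division of reads between the copies. The means were 89.9% ± 3.22 in 0.75X MMR and 93.9% ± 1.00 in 0.1X MMR (SD, n = 3 each), a difference of -3.96 percentage points (exact two-sided permutation test, p = 0.2). Without replicate 1 of 0.75X MMR the difference was -2.27 points. Over all samples 92.3% of aqp1 counts were on L, a share that 4.15% of the 7007 pairs exceeded, and the median pair had 56.0%.

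The counts of aqp3 were more evenly placed. The L share was 72.4%, 69.2% and 57.1% in 0.75X MMR, against 65.9%, 57.7% and 65.1% in 0.1X MMR, and the media overlapped. The means were 66.2% ± 8.04 in 0.75X MMR and 62.9% ± 4.53 in 0.1X MMR (SD, n = 3 each), a difference of 3.35 points (exact two-sided permutation test, p = 0.6). This value rested on single samples. It was 0.285 points without replicate 1, 1.85 points without replicate 2 and 7.90 points without replicate 3 of 0.75X MMR. Without replicate 2 of 0.1X MMR it was 0.741 points. After thinning to the lowest total, which was 1 random draw of counts, the difference was 8.15 points. These are shares of reads. Transcript lengths were not used here, and a longer transcript on one subgenome would draw more reads, which leaves the comparison between media untouched but not the level of the share itself.

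**Figure D3:**
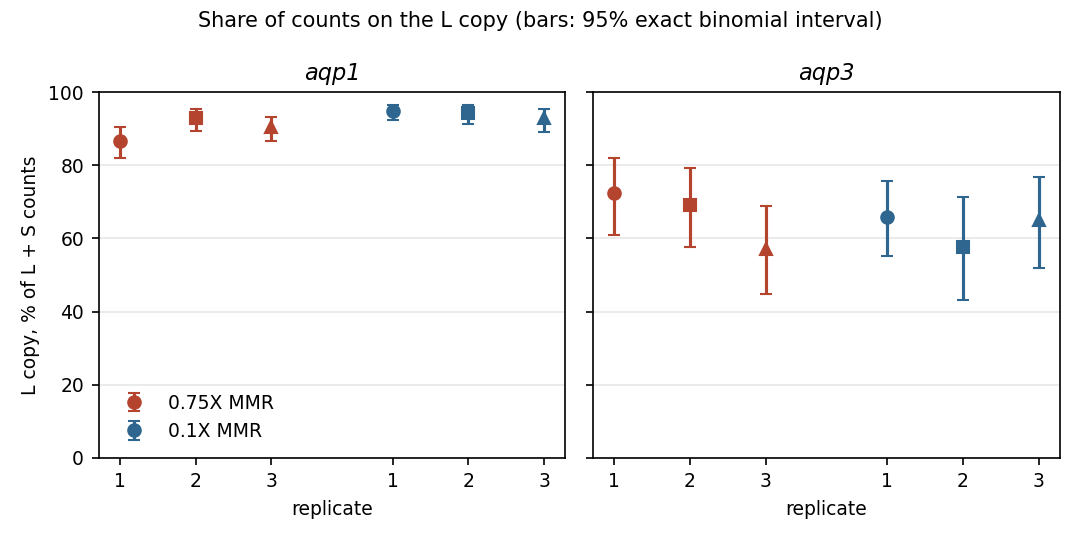
Share of counts on the L copy, in percent of L + S counts, for aqp1 (left) and aqp3 (right) in each replicate of 0.75X MMR and 0.1X MMR, with exact binomial 95% intervals that cover counting error only. The aqp1 shares run from 86.6% to 94.7%, lowest in replicate 1 of 0.75X MMR, and the aqp3 shares from 57.1% to 72.4% with overlapping intervals.

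The deposited log2 CPM values, from which the authors removed surrogate variables (estimated hidden factors), cover 24661 genes, all 4 aquaporin genes among them. There aqp1.L ranged from 5.35 to 5.61 in 0.75X MMR and from 5.63 to 5.95 in 0.1X MMR. For aqp1.S the range was 2.32 to 2.36 in 0.75X MMR and 1.78 to 1.94 in 0.1X MMR, so that here both aqp1 copies had samples that did not overlap. This was so for 27.0% of the genes in that file, against 9.77% of all tested genes in TMM-normalized CPM. In CPM without that adjustment the aqp1.S samples overlapped, at 3.90 to 5.80 in 0.75X MMR and 3.25 to 4.23 in 0.1X MMR. The separation of aqp1.S was thus seen only after surrogate variables had been removed. The aqp3.L samples overlapped, at 2.86 to 2.95 in 0.75X MMR and 2.47 to 2.97 in 0.1X MMR, and so did those of aqp3.S. The differences of the means, 0.75X MMR minus 0.1X MMR, were -0.31 for aqp1.L, 0.46 for aqp1.S, 0.26 for aqp3.L and 0.016 for aqp3.S, and no test was run on these adjusted values.

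The rest of the aquaporin family was taken as the rows whose symbol starts with aqp, the lens channel gene mip (aquaporin 0), and genes that the deposited file describes as aquaporins. These were 19 genes, of which 7 passed the filter on low counts. Descriptions were at hand for only the 24661 genes of the deposited log2 CPM values, out of 42638 genes in the counts. An aquaporin outside them with another kind of symbol would have been missed, so the 19 may not be the whole family. By edgeR 0 of the 7 passed an adjusted p of 0.05, against 0.0178% of all tested genes, and DESeq2 and limma-voom also called 0. However, DESeq2 gave no adjusted p for aqp3.L, which had 280 counts over all samples. Of the 7, LOC108712939, XB5993457.S and aqp9.L had fewer (180, 213 and 279), so the 0 by DESeq2 may not cover them. At an unadjusted p under 0.05 by edgeR there were 0 of the 7, against 4.39% of all tested genes. Their log2 fold changes were positive in 4 and negative in 3, with a median of 0.023. In 0 of the 7 were the samples of the media separate, against 9.77% of all tested genes, so few genes cannot show a departure from these shares. The gene aqp11.L, whose mammalian counterpart encodes an intracellular channel, had 45.0 ± 7.89 CPM in 0.75X MMR and 44.2 ± 4.31 CPM in 0.1X MMR (SD, n = 3 each), a log2 fold change of 0.023 with a 95% interval of -0.23 to 0.28. The lens genes had log2 fold changes of 0.080 (mip.L) and 0.055 (mip.S).

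Among the aquaglyceroporins besides aqp3, aqp9.L, known from the liver in mammals, had a log2 fold change of -0.11, and LOC108712939, described as aquaporin-9, one of -0.11. The interval of aqp9.L was -0.66 to 0.44 and that of LOC108712939 was -0.64 to 0.42. The genes XB5993457.L and XB5993457.S, described as provisional orthologs of aquaporin 4, had log2 fold changes of 0.21 and -0.25, each with an interval that included 0.

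The other 12 family genes had almost no counts. No count was found in any sample for aqp2.L, aqp2.S, aqp5.S, aqp10.L and aqp-xl2, which allows a level of up to 0.426 to 0.597 CPM per library. The remaining 7 had at most 8.2 counts over all samples together (aqp12a.S). In mammals aqp2 is the vasopressin-regulated channel of the kidney collecting duct and aqp5 a channel of secretory glands. On chromosome 2S the genes aqp-xl2, aqp5.S, aqp2.S and aqp-x3 lie between 139866201 and 140068418, and of these only aqp-x3 had counts, 6 in all.

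**Figure D4:**
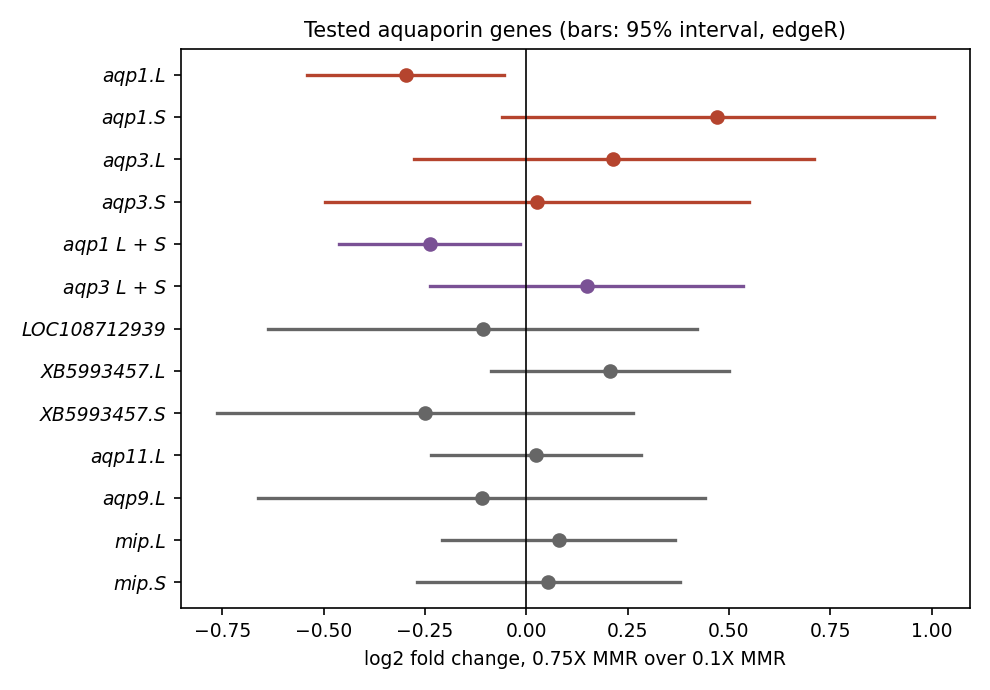
Log2 fold change of 0.75X MMR over 0.1X MMR with the 95% interval from edgeR for the 4 aqp1 and aqp3 genes (red), their sums over L and S (purple) and the 7 other aquaporin genes that passed the filter (grey). The intervals of aqp1.L (-0.54 to -0.055) and of the aqp1 sum (-0.46 to -0.016) lie below 0 and all others include 0, and no gene had an adjusted p under 0.05.

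A list of 21 symbols was drawn up for water and salt balance (tonicity response, epithelial sodium uptake and the kinases that control ion transport). Earlier results of these data were known when it was drawn up, so its counts below are a description and not an independent test. The symbols slc6a6, slc6a12 and hspa4l matched no row, and the others matched 36 genes, all of which passed the filter. Of these, 0 were higher and 1 was lower in 0.75X MMR at an adjusted p under 0.05 by edgeR, where 0.0107% of all tested genes were lower. At an unadjusted p under 0.05, 0 were higher and 4 were lower, and 2.25% of all tested genes were lower at that limit. The samples of the media did not overlap in 7 of the 36, against 9.77% of all tested genes. Their median log2 fold change was 0.045, and that of all tested genes was -0.0014. The lower gene was sgk1.L, a kinase that raises sodium channel activity, at 45.8 ± 2.47 CPM in 0.75X MMR and 73.0 ± 6.41 CPM in 0.1X MMR (SD, n = 3 each), with a log2 fold change of -0.67 (adjusted p = 0.0289 by edgeR). Leaving out any one of 4 samples (replicates 1 and 3 of either medium) ended that call.

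Cells in which aqp1 and aqp3 are known from mammals were followed by marker lists, since in whole embryos fewer cells of a type and less RNA per cell cannot be told apart. The summed level of 17 red blood cell genes was 482 to 517 CPM in 0.75X MMR and 321 to 524 CPM in 0.1X MMR, and 11 of the 12 that passed the filter had positive log2 fold changes (median over the 12, 0.26), against 49.6% of all tested genes. By edgeR 0 of the 12 had an adjusted p under 0.05 and 2 had an unadjusted p under 0.05, against 4.39% of all tested genes, and the samples of the media did not overlap in 3 of the 12, against 9.77%. The low sum, 321 CPM, was that of replicate 3 of 0.1X MMR. The sums for 21 endothelial genes were 349 to 374 CPM in 0.75X MMR and 354 to 382 CPM in 0.1X MMR, and those for 13 genes of the pronephros, the embryonic kidney, were 145 to 169 CPM in 0.75X MMR and 158 to 162 CPM in 0.1X MMR. For 15 epidermal genes the sums were 7783 to 7974 CPM in 0.75X MMR and 7812 to 8002 CPM in 0.1X MMR. Log2 fold changes were positive in 9 of the 21 endothelial genes (median -0.011) and 5 of the 13 pronephros genes (median -0.017). They were positive in 9 of the 15 epidermal genes (median 0.066). In each of these lists 0 genes had an unadjusted p under 0.05 by edgeR, and the samples of the media did not overlap in 1 gene. The media overlapped in all 4 sums, and 0 genes of the lists were without counts in every sample. The part of these cell types in the aqp1.L values was not tested.

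The genes most like each aquaporin gene across the samples were taken by the Pearson correlation of log2 CPM over all 6 samples, among genes with a mean of at least 10 CPM. For aqp1.L they included mst1.L (r = 0.987) and tm4sf5.L (0.979), and for aqp1.S they were erlec1.L (0.985), eif5.L (0.981) and arhgef25.S (0.977). For aqp3.L they were isyna1.S, an enzyme of inositol synthesis (r = 0.996), cct8.S, a chaperonin subunit (0.995), and LOC100191024, described as an EphA2-like ephrin receptor (0.987). For aqp3.S they were c21orf91.L (r = 0.990), LOC108712833, described as synaptic vesicle glycoprotein 2B (0.988), and ivns1abp.L (0.980). No gene was named for more than one aquaporin. All these values come from the same 6 libraries, with 15358 genes to choose from (15357 for aqp1.L), and 21 to 43 genes lay above 0.95 for each aquaporin gene. They are given as a description.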

How the data were processed

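Per the study's methods, fastp trimmed the reads, STAR aligned them in 2 passes to the v10.1 genome and RSEM estimated gene counts (tools also named in the submitters' processing notes). The deposited values are RSEM expected counts per gene, not normalized. A second deposited file holds log2 CPM that the authors obtained by TMM and voom and from which they removed surrogate variables. Here expected counts were rounded, genes over 0.6 CPM in at least 3 samples were kept, and edgeR 4.0.16 (TMM, quasi-likelihood test, medium as the only term, Benjamini-Hochberg adjustment over all genes) was fitted in R 4.3.3. Intervals of 95% used the standard error and t quantile of that fit. The filter and TMM are named in the study's methods, which name no block. The methods state the filter with the gene count of the study's other comparison, Xenobots against embryos. In comparing the media the study also used surrogate variable analysis and batch correction, which the main fit here did not. The filter left 28075 genes here while the deposited log2 CPM file holds 24661, so the gene set behind that file was not rebuilt. Alternatives used limma 3.58.1, DESeq2 1.42.0 and sva 3.50.0. Depth was 5024957 to 7045215 counts per sample. The fitting function was tested on simulated data. Coordinates are from RefSeq's v10.1 gene table, in which 4 of 4 genes matched. The genes named are the 4 aquaporin genes, family members past the filter, the 3 genes most like each of the 4 (1 of them is not reported here), and list members past the adjusted p limit of 0.05, and the low-count family genes, aqp7 and the neighbouring genes were added. Genes, lists and tests were chosen with earlier results of these data known.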

Additional observations from a re-analysis of the deposited data

How the results depend on the processing

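With 8 alternatives (RLE size factors, DESeq2, limma-voom, limma-voom with 2 surrogate variables from sva, no filter, a replicate block, thinning to the lowest total, the deposited adjusted values), log2 fold changes ranged from -0.40 to -0.28 for aqp1.L, 0.40 to 0.61 for aqp1.S, 0.20 to 0.35 for aqp3.L and -0.11 to 0.028 for aqp3.S. The lowest adjusted p was 0.508 (aqp1.L, limma-voom with surrogate variables). For aqp3.S the sign turned with surrogate variables (-0.0040) and after thinning (-0.11). Thinning was 1 random draw of counts, with a separate draw for the summed pairs, so its values also carry the error of that draw. No setting, including L and S added up, brought any of the 4 genes past the limit. With 1 sample left out, the ranges were -0.38 to -0.18 for aqp1.L, 0.35 to 0.61 for aqp1.S, -0.0083 to 0.38 for aqp3.L and -0.095 to 0.15 for aqp3.S. The negative values of aqp3.S were -0.072 without replicate 2 of 0.1X MMR and -0.095 without replicate 3 of 0.75X MMR. The summed pairs, whose alternatives were chosen after seeing the data, as were those of the lists, ranged from -0.30 to -0.14 for aqp1 and from -0.028 (without replicate 2 of 0.1X MMR) to 0.27 for aqp3. The L share difference with 1 sample left out was -5.47 to -2.27 points for aqp1 and 0.285 to 7.90 points for aqp3, and after thinning it was -3.59 and 8.15 points.

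Same-numbered samples of the media were not correlated in their deviations from the group means (r = -0.024, -0.032 and -0.10), and 0 of the 3 samples in 0.75X MMR matched its own number best, which does not show whether they share parents or a batch. With the replicate block aqp1.L had a log2 fold change of -0.30 and an unadjusted p of 0.0371 (edgeR), the water and salt balance list had 0 calls in place of 1, and over all genes there were 2 calls in place of 5. That list had 2 calls without a filter (sgk1.L and scnn1a.L, a sodium channel subunit named after its value was seen) and 0 to 1 with 1 sample left out. Over all genes there were 14 calls by DESeq2, 16 with surrogate variables, 34 without a filter, 9 after thinning and 1 to 10 with 1 sample left out. The cause was not tested. DESeq2 gave no adjusted p for aqp1.S, aqp3.L and aqp3.S. In the main edgeR fit the standard errors of these genes on the log2 scale were 0.23 to 0.25, against 0.11 for aqp1.L.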
